A study of Mus musculus with 20 samples.

Results

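The regions described here are stretches of mouse chromatin with an H3K27me3 peak in both libraries of Rb1L/L fibroblasts and in neither library of wild-type (WT) fibroblasts. Peaks of the 4 H3K27me3 libraries on chromosomes 1 to 19 were merged wherever they overlapped by at least 1 bp. Of 85840 merged regions, 4613 met the rule, or 5.37%. The regions were selected on the measured H3K27me3 peak calls themselves, so their H3K27me3 values are a description and were not tested.

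Chromatin immunoprecipitation followed by sequencing was performed on embryonic fibroblasts of C57BL/6 mice, prepared at E13.5 and used while cycling at passage 4. Rb1L/L cells are homozygous for the L allele of Rb1, which alters the cleft through which the retinoblastoma protein pRb binds LXCXE-motif proteins, and WT cells carry the normal gene. The deposited material holds 12 peak lists: 2 libraries per genotype for H3K27me3 and for TFIIIC, and 1 per genotype for each of the condensin II subunits CAP-D3 and CAP-H2. Cells were fixed with ethylene glycol bis(succinimidyl succinate), abbreviated EGS, and then formaldehyde for H3K27me3 and condensin II, and with formaldehyde alone for TFIIIC. The labels do not say whether libraries of a genotype came from separate embryos or cultures, so a p-value here reflects library-to-library spread that may be purely technical. By the labels, the Rb1L/L condensin II libraries share their input with H3K27me3 library 1 of that genotype, and the WT ones with WT H3K27me3 library 2.

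H3K27me3 is the methyl mark that Polycomb repressive complex 2 writes on histone H3, and it typically lies over silenced developmental genes as broad domains. pRb restrains E2F transcription factors and, through its LXCXE-binding cleft, contacts chromatin regulators. Condensin II is a ring-shaped complex that compacts chromosomes, and TFIIIC is the factor that binds internal promoters of RNA polymerase III genes such as tRNA genes. The study's title concerns the recruitment of condensin II by pRb. Regions are described by mm9 position alone: no gene annotation or sequence of that build was used, and the cell type was not checked against marker genes.

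Sequencing depth is unknown here, as the lists carry no read totals. The H3K27me3 lists held 43951 and 56396 peaks in Rb1L/L libraries 1 and 2, against 24741 and 45979 in WT libraries 1 and 2. WT library 1 has the shortest list. Measured as shared bases over the union, the lists of the Rb1L/L libraries overlapped by 33.6% and those of the WT libraries by 28.6%. Pairs of 1 Rb1L/L and 1 WT library gave 25.8% to 32.7%, which lies below the Rb1L/L pair and on both sides of the WT pair.

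Regions of both Rb1L/L libraries alone were the most numerous of the 6 classes with a peak in exactly 2 libraries, but only by a narrow margin. The 4613 regions compare with 4342 that had a peak in Rb1L/L library 2 and WT library 2 and in no other. The remaining mixed classes held 2232 regions (Rb1L/L 1 and WT 2), 1327 (Rb1L/L 2 and WT 1) and 844 (Rb1L/L 1 and WT 1). The mirror class, found in both WT libraries and no Rb1L/L library, held 655 regions, or 0.763% of all. When every library was reduced to the same number of top-scoring peaks, 1745 regions were found in both Rb1L/L and no WT library, 1203 of them overlapping a region of the full set. The corresponding numbers were then 1552 for Rb1L/L 2 with WT 2, 950 to 1154 for the other mixed classes and 705 for both WT libraries alone. Equal list lengths thus cut the count by more than 1.5 times, and the class of both Rb1L/L libraries stayed the largest of the 6 and that of both WT libraries the smallest.

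**Figure D1:**
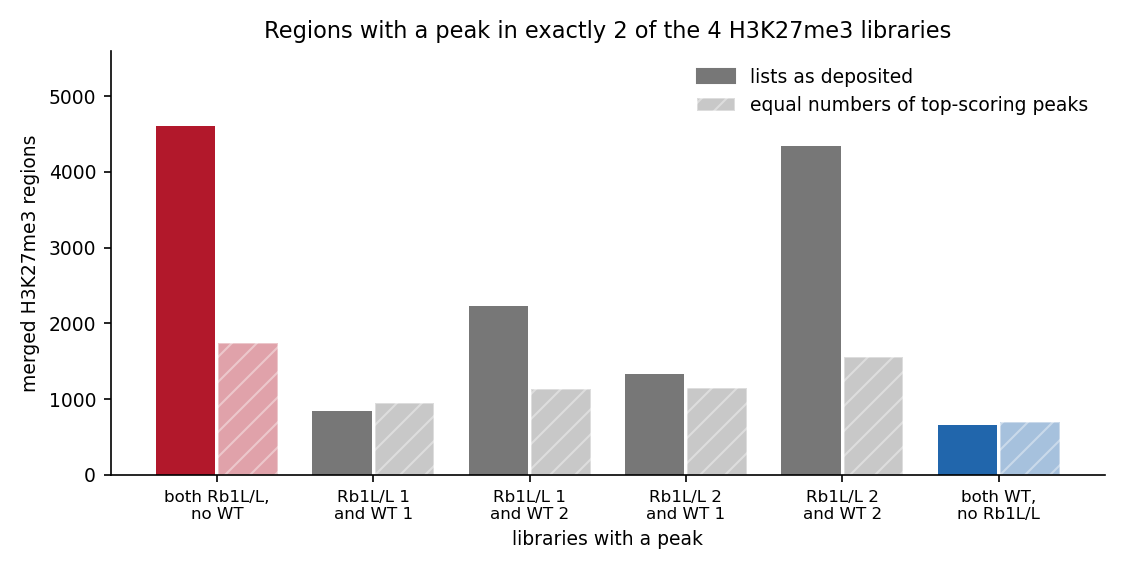
Number of merged H3K27me3 regions (vertical axis) with a peak in exactly 2 of the 4 libraries, named on the horizontal axis; solid bars use the lists as deposited and hatched bars equal numbers of top-scoring peaks per library. The class of both Rb1L/L libraries stands at 4613 and 1745 regions, the class of Rb1L/L 2 and WT 2 at 4342 and 1552, and the class of both WT libraries at 655 and 705.

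The Rb1L/L regions were short and of middling score. Their median width was 1006 bp, with 80% of them between 697 and 1585 bp, and the widest spanned 4054 bp. Regions found in all 4 libraries, 7462 in number, had a median width of 3182 bp, and 78.9% of them exceeded 2 kb, against 2.75% of the Rb1L/L regions (127 regions). Regions of Rb1L/L 2 and WT 2, which also rest on 2 libraries, had a median of 985 bp and hence nearly the same width as the Rb1L/L regions. All 4613 regions together covered 5.01 Mb. In 92.1% of them a single peak of each Rb1L/L library made up the region, and the bases called in both libraries were a median of 47.2% of the width.

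The authors' score per peak, written by the peak caller MACS, ranks peaks within a list and is not a measure of enrichment between lists. The median score of the regions was 241 in Rb1L/L library 1 and 148 in Rb1L/L library 2, which is a median rank at the 45.5th and 50.2nd percentile of those lists. In the highest of 4 equal score classes of each list lay 622 of the regions for library 1 and 855 (18.5%) for library 2. Most of these regions were therefore ordinary or weak peaks of the lists they came from. Regions of all 4 libraries had median scores of 822 and 695 in the Rb1L/L libraries. Over the 4613 regions the scores of the Rb1L/L libraries ranked only loosely together (Spearman's rho 0.23, across regions that share the same libraries). The rule has a sharp edge: 45 regions had a lower score under 60, close to the smallest score a list holds, the lowest being 50.55 and 50.61. Just outside it, 12903 regions had a peak in both Rb1L/L libraries and in at least 1 WT library. Of these, 10 had no WT score of 60 or more, the lowest being 51.22 and 51.37.

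**Figure D2:**
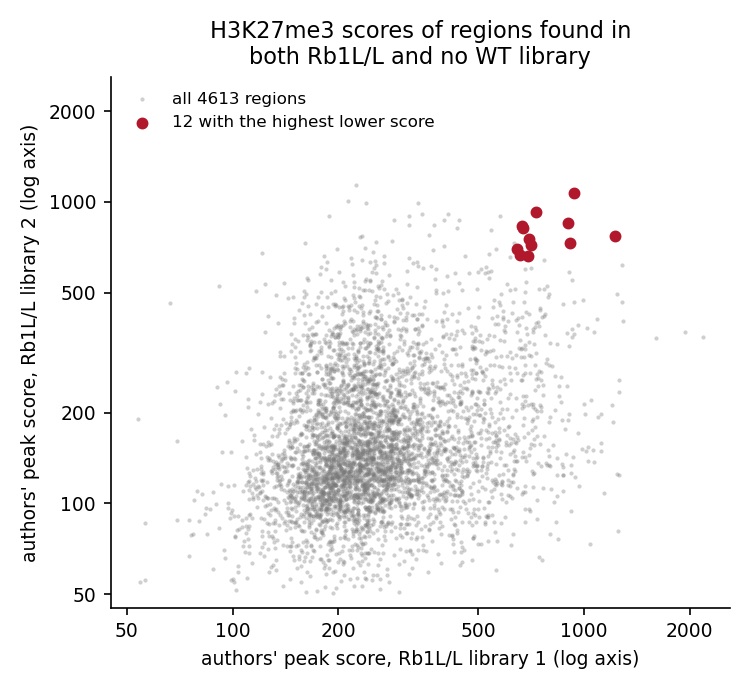
Authors' H3K27me3 peak scores of each region in Rb1L/L library 1 (horizontal log axis) and library 2 (vertical log axis), for all 4613 regions in grey and for the 12 regions with the highest lower score in red. The middle 80% of the regions scored 157 to 500 in library 1 and 90.9 to 341 in library 2; over the 12 leading regions the lowest score was 645 in library 1 and, at another region, 664 in library 2.

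Ranked by the lower of the Rb1L/L scores, the leading region lay on chromosome 1 from 135783126 to 135785664. It scored 937 in Rb1L/L library 1 and 1074 in library 2, and the nearest WT peak lay 72 bp away. The second, on chromosome 6 from 99901452 to 99903499, scored 900 and 852 and lay 2640 bp from a WT peak and 2258 bp from a region of all 4 libraries. The third, on chromosome 9 from 106064949 to 106067130, had the highest score of the leading 12 in library 1, 1226, with 768 in library 2, and abutted a WT library 2 peak at 32 bp. The fourth, on chromosome 14 from 119217183 to 119219459 (scores 731 and 929), was farther from WT signal, at 8490 bp, and carried a TFIIIC peak in both Rb1L/L and in no WT library. The fifth, on chromosome 5 from 36771688 to 36773772 (scores 912 and 730), showed the opposite TFIIIC pattern, with a peak in both WT and in no Rb1L/L library. None of the 12 leading regions had a CAP-D3 or CAP-H2 peak in either genotype, as held for 97.7% of all 4613 regions. All 12 had a WT H3K27me3 peak within 10 kb, as had 86.4% of the 4613. The farthest was the 8490 bp of the region on chromosome 14.

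The widest regions were 3379 to 4054 bp long. The widest, on chromosome 2 from 127456386 to 127460439, scored 874 and 459 in Rb1L/L libraries 1 and 2 and lay 906 bp from a WT peak. It carried TFIIIC in both Rb1L/L libraries and in WT library 1. The next, on chromosome 13 from 28977256 to 28980887, scored 1943 and 370 and lay 1864 bp from a WT peak, but 1660096 bp from the nearest region of all 4 libraries. It was also the single one of the 5 widest with condensin II, a CAP-D3 peak in Rb1L/L and not in WT.

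Most regions lay beside H3K27me3 that was also called in WT cells. A WT peak stood within 1 kb of 2034 regions (44.1%), within 5 kb of 3545 (76.8%) and within 50 kb of all but 161 (3.49%), and the median gap was 1301 bp. WT peaks flanked 1545 regions (33.5%) within 5 kb on both sides and 2000 (43.4%) on 1 side, leaving 1068 (23.2%) with none. When peaks of all 4 libraries were stitched into domains across gaps of up to 5 kb, 3772 regions (81.8%) fell into domains with a WT peak, and 2122 (46.0%) into domains with a region of all 4 libraries. The mixed class of Rb1L/L 2 and WT 2 lay as close to peaks of the libraries it lacked: the median gap was 1420 bp, with 41.9% within 1 kb and 75.3% within 5 kb. In the other mixed classes the median gap was 863 to 949 bp, and in the class of both WT libraries 779 bp. These gaps run to lists of unlike length. Counted over all chromosomes, the lacking lists held 70720 peaks for the Rb1L/L regions and 68692 for Rb1L/L 2 and WT 2. They held 81137 to 102375 for the other mixed classes and 100347 for the class of both WT libraries. On chromosomes 1 to 19, where the regions lie, the Rb1L/L lists held 43610 and 55620 peaks and the WT lists 24634 and 42944. WT library 2 had 45979 over all chromosomes, so these totals overstate the WT peaks near the regions most. Lying close to peaks of the libraries that lack the region was therefore shared by all 6 classes.

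**Figure D3:**
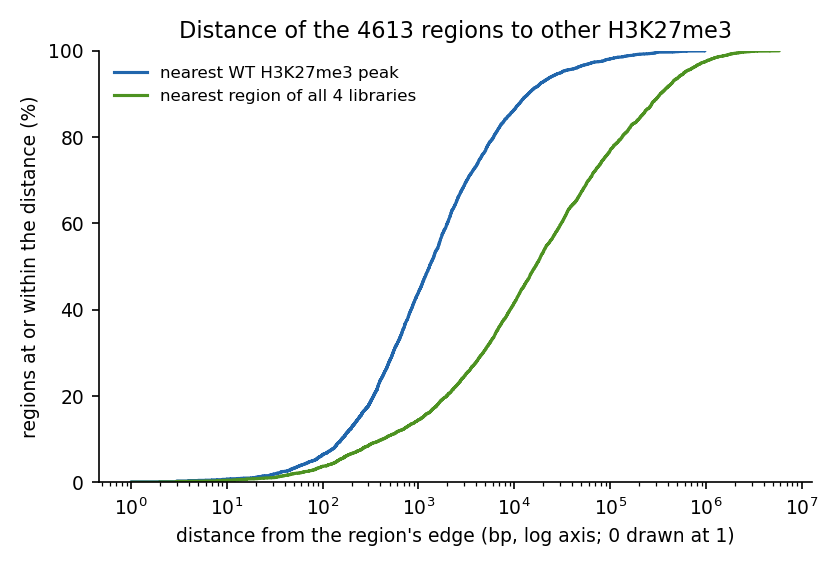
Cumulative share of the 4613 regions (vertical axis, percent) that lie at or within a given distance (horizontal log axis, bp) of the nearest WT H3K27me3 peak (blue) or the nearest region found in all 4 libraries (green). The blue curve passes 44.1% at 1 kb and 76.8% at 5 kb, and the green one 14.5% and 30.8%.

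The 2 domains richest in these regions were large and also marked in WT cells. The domain on chromosome 5 from 110879544 to 111008975 held 8 of them among 47 merged regions, 16 of which were found in all 4 libraries. The domain on chromosome 6 from 119180826 to 119285812 held 8 among 50, with 5 found in all 4. Domains with Rb1L/L regions and no WT peak at all numbered 790, but 47 of them had 2 or more such regions and 3 had 3 or more. The mirror case, a domain with 2 or more regions of both WT libraries and no Rb1L/L peak, did not occur. That class holds only 655 regions, against 4613. The lists its regions must avoid are also longer, with 100347 Rb1L/L peaks over all chromosomes. Those that the Rb1L/L regions avoid hold 70720 WT peaks. Whether the numbers of such domains differ beyond this was not tested. The richest Rb1L/L domain without a WT peak ran over 7038 bp of chromosome 15 from 78248548 to 78255585 and held 4 such regions among 5. The next were on chromosome 2 from 33748873 to 33760645, with 3 regions over 11773 bp, and on chromosome 14 from 78576569 to 78581985, with 3 regions over 5417 bp.

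Along the genome the regions followed H3K27me3 in general. They made up 4.50% (chromosome 14) to 6.26% (chromosome 2) of the merged regions of a chromosome, against 5.37% over all autosomes, and each of the 19 chromosomes held at least 119. Of 2336 windows of 1 Mb with any H3K27me3 region, 1307 held at least 1 of them, and the fullest held 18. The windows with most were on chromosome 2 from 28000001 to 29000000 (18 of 209 merged regions, 8.61%) and from 127000001 to 128000000 (18 of 201, 8.96%). Next came chromosome 2 from 33000001 to 34000000 with 17 of 135 (12.6%), which includes one of the Rb1L/L domains named above. Chromosome 9 from 61000001 to 62000000 held 16 of 180, and chromosome 2 from 92000001 to 93000000 held 15 of 168. The last was tied: windows starting at 112000001 on chromosome 5 and at 43000001 and 69000001 on chromosome 9 also held 15. In the first 5 windows named, the class of Rb1L/L 2 and WT 2 had 12, 16, 11, 9 and 6 regions.

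TFIIIC was not used to choose the regions and had replicates. A TFIIIC peak overlapped 28.3% and 29.7% of the regions in Rb1L/L libraries 1 and 2, against 13.9% and 18.5% in WT libraries 1 and 2. The means were 29.0 ± 1.00% in Rb1L/L and 16.2 ± 3.23% in WT (SD, n = 2 each), a difference of 12.8 percentage points, and both Rb1L/L libraries lay above both WT libraries. The two-sided exact permutation p was 0.33, the smallest that 2 against 2 libraries allow. The Rb1L/L TFIIIC lists were also longer over the whole genome, with 294135 and 301874 peaks against 200350 and 239960 in WT. Their peaks were wider, at a median of 764 and 756 bp against 642 and 678 bp. On chromosomes 1 to 19 they covered 262 and 266 Mb, against 147 and 186 Mb in WT. With equal numbers of top-scoring peaks, the means were 29.5% in Rb1L/L and 20.4% in WT, in a set of 1745 regions. Equal numbers leave the peak widths as they are.

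A difference in the same direction stood at the other classes of H3K27me3 regions. Among all remaining merged regions, 25.6 ± 0.88% had a TFIIIC peak in Rb1L/L libraries and 15.6 ± 3.05% in WT libraries (SD, n = 2 each). To compare the regions with the rest within each library, the log2 ratio of their TFIIIC share to that of all remaining regions was taken. It was 0.18 in each Rb1L/L library, against 0.05 and 0.06 in the WT libraries, a difference of 0.13 in log2 (two-sided exact permutation p 0.33). Against the class of Rb1L/L 2 and WT 2, which is similar in width, the ratios were 0.14 and 0.15 in Rb1L/L and 0.04 and 0.05 in WT, a difference of 0.10. Against the class of both WT libraries they were 0.03 and 0.0050 in Rb1L/L and −0.09 and −0.19 in WT. In 1 kb windows, which remove differences in width, the ratios to all remaining regions were 0.13 and 0.14 in Rb1L/L and 0.02 and 0.02 in WT. In the same windows the ratios to the class of both WT libraries were −0.06 and −0.08 in Rb1L/L and −0.13 and −0.24 in WT. These were negative in each of the 4 libraries (two-sided exact sign-flip permutation p 0.125). Over whole regions, the Rb1L/L regions thus had a TFIIIC peak slightly more often than all remaining regions in each of the 4 libraries. The excess was larger in the Rb1L/L libraries. The two-sided exact sign-flip permutation p was 0.125, the smallest for 4 libraries. All remaining regions were narrower, at a median of 633 bp, and many had a peak in 1 library alone. The class of Rb1L/L 1 and WT 1 had TFIIIC in 29.4% and 31.8% in Rb1L/L and 16.5% and 23.6% in WT. That class and that of Rb1L/L 2 and WT 1 stood above the Rb1L/L regions in each of the 4 libraries. The class of Rb1L/L 2 and WT 2 stood below in each. That of Rb1L/L 1 and WT 2 stood below in all but WT library 2. The difference of 0.13 was 0.05 when H3K27me3 Rb1L/L library 2 was left out of the choice of regions and 0.08 without WT library 2. Among the 161 regions without a WT H3K27me3 peak within 50 kb, the difference in ratio turned to −0.37 (exact permutation p 0.667), as TFIIIC shares there were 18.6% in both Rb1L/L libraries and 16.1% and 13.0% in WT.

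**Figure D4:**
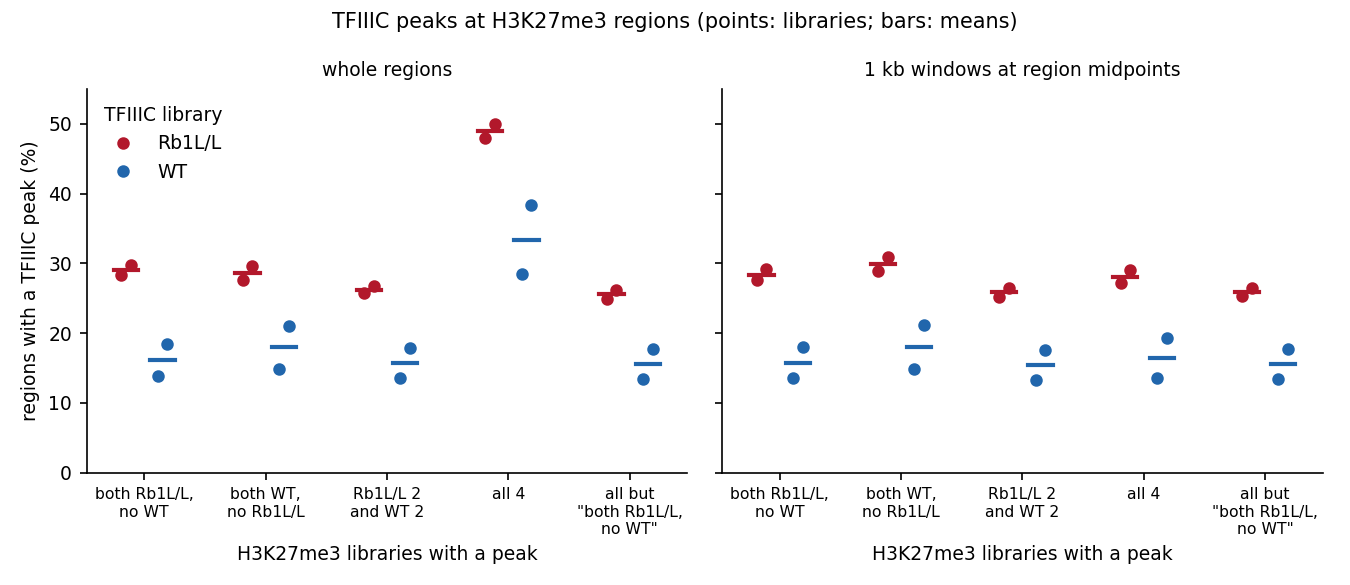
Percent of H3K27me3 regions with a TFIIIC peak (vertical axis) in Rb1L/L (red) and WT (blue) TFIIIC libraries, as points per library with bars for the mean of 2, over whole regions (left) and over 1 kb windows at region midpoints (right), for classes of regions named on the horizontal axis. In each class both Rb1L/L libraries lie above both WT libraries; over whole regions the class of all 4 libraries stands highest, at 49.0% and 33.4%, and over 1 kb windows it stands at 28.1% and 16.4%, near the Rb1L/L regions at 28.4% and 15.8%.

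Read per region, TFIIIC patterns lay near the background of all H3K27me3 regions. The pattern of Rb1L/L libraries only was somewhat more common than there, and a lack of TFIIIC somewhat rarer. A peak in both Rb1L/L and no WT TFIIIC library was found at 313 of the 4613 regions (6.79%, 95% exact binomial interval 6.08 to 7.55), where 5.25% of all merged regions had this pattern. A peak in both WT and no Rb1L/L library was found at 18 (0.390%, 0.231 to 0.616), against 0.602% of all. All 4 libraries had a peak at 178 (3.86%), against 4.13% of all, and none had one at 2508 (54.4%), against 58.9%. In the class of Rb1L/L 2 and WT 2, similar in width, 5.76% had the Rb1L/L-only pattern and 56.7% had no TFIIIC peak. In the class of both WT libraries these shares were 4.89% and 55.3%. Regions of all 4 libraries, which are wider, had the Rb1L/L-only pattern more often than the Rb1L/L regions, in 7.73%. They lacked TFIIIC less often, in 31.3%. The binomial intervals cover counting error only and treat regions as independent, which neighbours in a domain are not. After the region on chromosome 14 named above, those with the highest H3K27me3 scores and the Rb1L/L-only TFIIIC pattern were on chromosome 2 from 73627307 to 73629861 (H3K27me3 scores 1280 and 464) and chromosome 11 from 3696027 to 3697666 (760 and 415). The second region with the WT-only TFIIIC pattern, after that on chromosome 5, was on chromosome 11 from 61181384 to 61183384 (299 and 331). Where a TFIIIC peak was present, its median rank in its own list was at the 53.3rd and 53.2nd percentile in Rb1L/L and the 57.4th and 51.8th in WT, close to the middle of each list.

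Regions with a higher lower score carried TFIIIC more often. The lower score is that of Rb1L/L library 2 in 79.3% of regions, so the classes mostly follow that list. With the regions cut into 4 equal classes by their lower H3K27me3 score, a 1 kb window at the midpoint, which removes differences in width, held a TFIIIC peak in 19.5%, 27.4%, 29.4% and 34.1% of regions from the lowest to the highest class in Rb1L/L library 1. In Rb1L/L library 2 the shares were 18.98%, 28.2%, 32.3% and 37.1%. In the WT libraries they ran from 11.6% to 14.9% and from 12.2% to 23.1% between the lowest and the highest class. All 4 libraries thus showed the same order of classes. In percentage points the range was wider in both Rb1L/L libraries, whose shares were also higher in each class. Ranges relative to the lowest class were not compared. Condensin II did not follow this order: CAP-H2 was found in 1.99% of the windows of the lowest class in Rb1L/L and 1.82% in WT, against 0.694% and 0.520% in the highest class.

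Around the regions, TFIIIC showed a narrow local maximum set in a shallow trough. At the centre, 17.2% and 17.8% of the regions were covered by a TFIIIC peak in Rb1L/L and 6.98% and 10.2% in WT. At 750 bp from the centre, just beyond the edge of a typical region, coverage was 11.6% and 12.5% in Rb1L/L and 4.88% and 6.83% in WT. At 5 to 10 kb it averaged 15.5% and 16.7% in Rb1L/L and 7.23% and 10.1% in WT. The log2 ratio of the centre to the flanks at 5 to 10 kb was 0.15 and 0.10 in Rb1L/L libraries, against −0.05 and 0.01 in WT libraries (difference 0.14, two-sided exact permutation p 0.33). Both Rb1L/L libraries lay above both WT libraries. At regions of Rb1L/L 2 and WT 2 the ratio was 0.11 and 0.12 in Rb1L/L and 0.13 and 0.11 in WT, a difference of −0.0003, while at regions of both WT libraries alone it was 0.24 and 0.21 in Rb1L/L and 0.31 and 0.41 in WT, a difference of −0.14. The two-sided exact permutation p was 1 for the mixed class and 0.33 for the class of both WT libraries, and differences between classes were not tested. The ratio was chosen after the data had been seen. With equal numbers of top-scoring peaks its difference was 0.11 and the genotypes overlapped (exact permutation p 0.67), and among regions without a WT peak within 5 kb it was 0.32. The difference of 0.14 was 0.02 when H3K27me3 Rb1L/L library 1 was left out of the choice of regions and −0.0037 without Rb1L/L library 2.

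**Figure D5:**
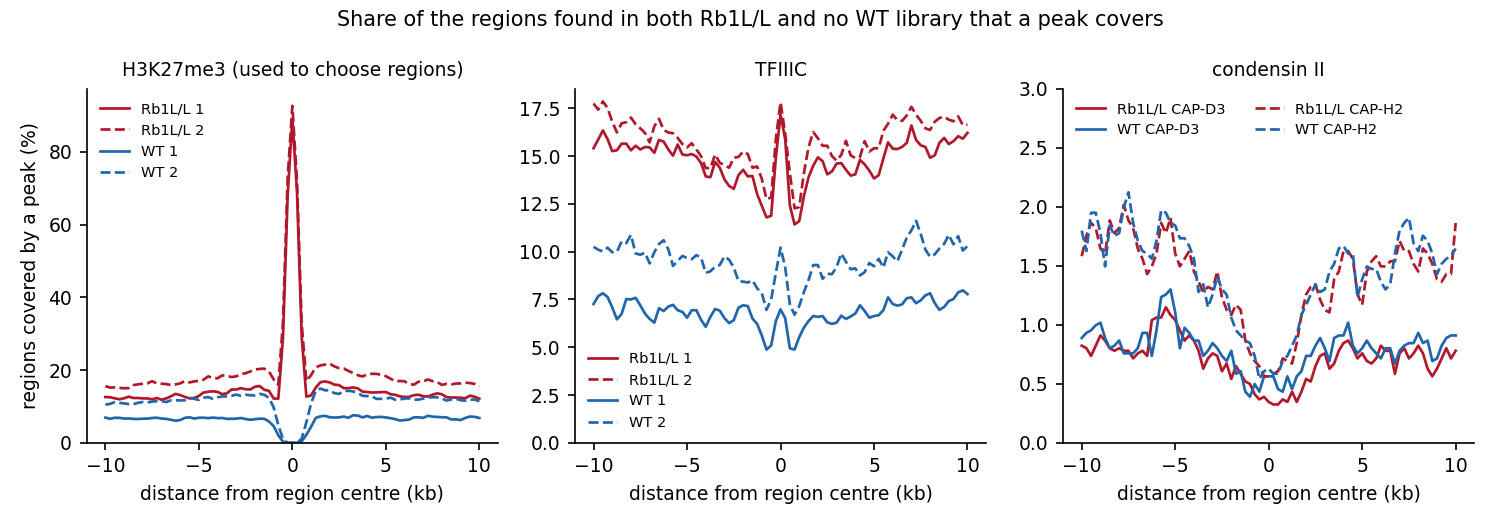
Percent of the 4613 regions covered by a peak (vertical axes) up to 10 kb on either side of the region centre (horizontal axes), for H3K27me3, TFIIIC and condensin II libraries, with Rb1L/L in red and WT in blue; dashed lines are library 2 or, for condensin II, CAP-H2. TFIIIC coverage has a local maximum at the centre, at 17.2% and 17.8% in Rb1L/L and 6.98% and 10.2% in WT, with minima near 750 bp, and far flanks reach higher in all but Rb1L/L library 1. All 4 condensin II lists have their lowest coverage within 1 kb of the centre. The WT H3K27me3 lists are at 0 at the centre by the choice of regions and rise again within 1 kb.

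Condensin II peaks were rare at these regions in both genotypes. CAP-D3 peaks overlapped 40 regions in Rb1L/L (0.867%, 95% exact binomial interval 0.620 to 1.18) and 57 in WT (1.24%, 0.937 to 1.60), a difference of −0.37 percentage points. CAP-H2 peaks overlapped 44 regions in Rb1L/L (0.954%, 0.694 to 1.28) and 41 in WT (0.889%, 0.639 to 1.20), a difference of 0.07 percentage points. Each subunit has a single library per genotype, so neither difference could be tested. All remaining merged regions had CAP-D3 in 1.76% (Rb1L/L) and 2.11% (WT) and CAP-H2 in 1.94% and 1.93%, and the class of Rb1L/L 2 and WT 2 had CAP-D3 in 0.806% and 1.04% and CAP-H2 in 0.737% and 0.783%. Regions of all 4 libraries, which are wider, had CAP-D3 in 8.36% and 10.1%. In 1 kb windows at the midpoint these shares were 3.83% and 4.58%, against 0.759% and 1.08% at the Rb1L/L regions. Over whole regions, the mixed class of Rb1L/L 1 and WT 1 stood higher than the Rb1L/L regions. It had CAP-D3 in 3.44% and 2.84% and CAP-H2 in 3.55% and 2.73%, so a low share was not common to all short regions of 2 libraries.

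Condensin II coverage was lower at the regions than 5 to 10 kb away. For CAP-H2, 0.564% of region centres were covered in Rb1L/L and 0.629% in WT, whereas 1.63% and 1.69% of positions 5 to 10 kb away were. For CAP-D3, the centres were covered in 0.347% in Rb1L/L and 0.564% in WT, against 0.800% and 0.876% in the flanks. WT CAP-D3 was lowest beside the regions, at 0.390% of positions 1 kb before the centre, and higher at the centre itself. The log2 ratio of centre to flank was −1.53 and −1.43 for CAP-H2 in Rb1L/L and WT, and −1.21 and −0.64 for CAP-D3. These ratios rest on the few covered centres given above, in a single library each, and their differences were not tested. At regions of all 4 libraries CAP-D3 instead rose above its flanks, with ratios of 1.36 in Rb1L/L and 1.37 in WT. CAP-H2 did not rise there, with ratios of −0.20 in Rb1L/L and −0.18 in WT. At regions of Rb1L/L 2 and WT 2 the CAP-H2 ratios were −2.24 and −2.70, and the CAP-D3 ratios −1.82 and −1.64.

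By pattern, 4507 of the 4613 regions (97.7%) had no condensin II peak in any list, where 96.3% of all merged regions had none. CAP-D3 was called in Rb1L/L and not in WT at 17 regions (0.369%, against a background of 0.443%) and in WT and not in Rb1L/L at 34 (0.737%, against 0.795%). CAP-D3 was called in both genotypes at 23 (0.499%, against 1.27%). CAP-H2 was called in Rb1L/L and not in WT at 18 (0.390%, against 0.494%) and in WT and not in Rb1L/L at 15 (0.325%, against 0.474%), and in both genotypes at 26 (0.564%, against 1.4%). None of these shares exceeded the background. Both subunits were called in Rb1L/L and neither in WT at 3 regions (0.0650%, against 0.0408%), and in WT and neither in Rb1L/L at 0 regions, with an upper bound of 0.0799% by the exact binomial interval and a background of 0.0221%.

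The 3 regions that had both H3K27me3 and both condensin II subunits in Rb1L/L and none of them in WT had low scores in Rb1L/L library 1. The first, on chromosome 2 from 167875850 to 167876807, had H3K27me3 scores of 116 and 112 in Rb1L/L libraries 1 and 2, no TFIIIC peak, and its nearest WT H3K27me3 peak 111061 bp away. The second, on chromosome 12 from 69546280 to 69546992, scored 77.1 and 79.4 and had a TFIIIC peak in all 4 libraries. The third, on chromosome 5 from 104791850 to 104793437, scored 53.9 and 190 and also had TFIIIC in all 4. By H3K27me3 score in Rb1L/L library 1 these rank at the 2.62nd, 0.421st and 0.0432nd percentile of that list. In Rb1L/L library 2 they rank at the 25.7th, 6.06th and 64.7th percentile, so the third lies above the middle of that list. These Rb1L/L condensin II lists and H3K27me3 library 1 share an input, whose part in such coincidences was not tested.

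Both subunits in both genotypes were present at 5 regions (0.108%, against 0.551% of all merged regions). The strongest of these was on chromosome 10 from 41404425 to 41405793, with H3K27me3 scores of 405 and 310, no TFIIIC peak and a WT H3K27me3 peak 1201 bp away. The next, on chromosome 4 from 94718164 to 94718987 (scores 156 and 158), was 63831 bp from WT H3K27me3. A pair of them lay near each other on chromosome 11, from 87262033 to 87262617 and from 87284657 to 87285350, with scores of 69.3 and 88.1, and 80.0 and 87.1.

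The 161 regions with no WT H3K27me3 peak within 50 kb, a distance chosen after the values were seen, were the most isolated. Their median width was 955 bp and their median lower score 126, against 1022 bp and 151 for regions within 1 kb of a WT peak. CAP-H2 was called in 7 of them in Rb1L/L (4.35%, 95% exact binomial interval 1.77 to 8.75) and 6 in WT (3.73%, 1.38 to 7.93). CAP-D3 was called in 4 in Rb1L/L (2.48%, 0.681 to 6.24) and 5 in WT (3.11%, 1.02 to 7.10). Within 1 kb of a WT peak, CAP-H2 was called in 0.934% of regions in Rb1L/L and 0.737% in WT, and CAP-D3 in 0.541% and 1.18%. The shares of H3K27me3 regions outside the 4613, 1.94% and 1.93% for CAP-H2 and 1.76% and 2.11% for CAP-D3, lie inside the intervals of the isolated regions. The highest-scoring isolated region lay on chromosome 9 from 10904089 to 10905434, with scores of 709 and 601 and the nearest WT peak 538320 bp away. The next, on chromosome 10 from 76045866 to 76048245, scored 771 and 516. The region farthest from WT H3K27me3, on chromosome 10 from 32608679 to 32610115 (scores 506 and 362), lay 976943 bp from a WT peak and had CAP-D3 in both genotypes and CAP-H2 in Rb1L/L. Isolated regions were not peculiar to Rb1L/L: among regions of Rb1L/L 2 and WT 2, 174 (4.01%) lay more than 50 kb from any peak of the other 2 libraries.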

How the data were processed

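The submitters' processing notes name the build mm9, Bowtie2 2.3.0 and MACS 1.4.0rc2, without settings. For every immunoprecipitated library the authors deposited a peak list with positions and a score; the score column is unnamed, and this MACS version usually fills it with a multiple of the negative log10 p-value. Sequencing depth can change the number, width and score of peaks. The 8 input samples have no list here. Overlaps, distances and shares were computed with Python 3.11.15, NumPy 2.4.6, pandas 2.3.3 and SciPy 1.17.1, after the code had been tested on simulated peaks. Coordinates are 1-based. Genotypes were compared over TFIIIC libraries with exact permutation tests, and shares from a single library carry Clopper-Pearson 95% intervals. The naming rule picks 33 regions, from which the text gives the leading ones: the 12 with the highest lower score, the 5 widest, the first 5 of each named TFIIIC or condensin II pattern, and the 5 fullest windows. The last of these windows was tied with others. The isolated regions beyond 50 kb and the stitched domains were chosen after their values were seen. The regions, lists and tests were chosen with earlier results of these data known. Alternatives were a score of at least 100, equal list lengths, other merging, overlap and distance rules, all chromosomes and leaving out each library.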

Additional observations from a re-analysis of the deposited data

How the results depend on the processing

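The number of regions was 1745 with equal numbers of top-scoring peaks, 3058 with peaks up to 1 kb apart merged, 1068 without a WT peak within 5 kb and, in an alternative added after seeing the data, 161 without one within 50 kb. It stayed within 1.5 times of the main number at a score of at least 100 (4054) and over all chromosomes (4632). Leaving out 1 H3K27me3 library gave 5953 to 30308 regions: 30308 without Rb1L/L library 1, 20935 without Rb1L/L library 2 and 9360 without WT library 2. The TFIIIC difference between genotypes kept its sign in all alternatives run, from 4.04 to 15.1 percentage points. Against all remaining regions its log2 difference turned to −0.37 beyond 50 kb of WT peaks, and centre over flank turned to −0.14 there. Leaving out 1 library gave −0.0037 to 0.17 for that centre-to-flank difference. The CAP-D3 difference stayed negative, from −0.62 to −0.15 percentage points. The CAP-H2 difference had no steady sign: it was 0.62 percentage points beyond 50 kb, −0.17 with equal list lengths, −0.03 with 1 kb merging, −0.19 without a WT peak within 5 kb, −0.09 where at least 50% of the region had to be covered and −0.16 without WT H3K27me3 library 2. The causes were not tested. The replicate numbers give no stated link between libraries of the 2 genotypes. With a replicate block, the TFIIIC difference stayed at 12.8 percentage points (exact sign-flip p 0.5, the smallest for 2 pairs), the log2 differences at 0.13 and 0.14. Of the 33 regions the naming rule picks, 26 remained with equal list lengths, 16 with peaks up to 1 kb apart merged, 7 without a WT peak within 5 kb and 3 without one within 50 kb.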
